A study of Daphnia magna with 22 samples.

Results

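Fully fed females of the water flea Daphnia magna that were bathed daily in beta-hydroxybutyrate (BHB) were compared with females of the same clones on caloric restriction (CR). The 12 libraries of the comparison, 6 on each side, were chosen by their labels out of 22 in the series. Each side held 3 females of the GB clone, taken from a permanent London lake, and 3 of the IL clone, taken from a Jerusalem pond that dries up in summer. BHB females received 400000 algal cells per mL per day and spent 2 h per day in 2.5 mM BHB. CR females received 100000 algal cells per mL and spent the same 2 h in plain medium. The sides therefore differ in both food and bath, and the parts of these in any difference cannot be told apart in this comparison. The other libraries of the series came from 6 control females and 4 females bathed in a compound labelled NMN. Both of these groups received 400000 algal cells per mL and a bath of 2 h per day, which for controls was plain medium. Each library came from 1 whole female whose new eggs had been removed, so fewer cells of a type and less RNA per cell cannot be told apart. Each clone is a single genotype kept by parthenogenesis, so that results hold for these 2 genotypes. The age at sampling, common to all groups, is printed in the design text in a form that may have lost a sign between its digits, and it is not used here.

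BHB is a ketone body, made in mammals by the liver from fatty acids during fasting, where it serves as a fuel and also inhibits class I histone deacetylases. Restricting food lengthens life in many animals and lowers the investment in eggs, which in Daphnia are provisioned with yolk made by the mother. By its title, the series concerns whether supplementation with this compound mimics restriction. The count table carries accessions and gene-model IDs but no names, and 0 of its 9831 distinct IDs were found in the RefSeq gene table of this species. Roles of the gene models are therefore not given, and results are stated by ID, size and direction.

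The BHB libraries held 11350367 ± 2093751 counts (SD, n = 6; 8503141 to 13627714) and the CR libraries 11195612 ± 859581 (n = 6; 10320588 to 12683059). Gene models with 10 or more counts numbered 3959 to 4238 per BHB library and 4071 to 4323 per CR library. All 6 CR libraries carry library numbers 17 to 22, while the BHB libraries carry 3 to 7 and 13, so any preparation step shared by neighbouring numbers cannot be told apart from treatment.

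Principal components of the 12 libraries, computed on log2 CPM (counts scaled to a common library size) after the mean of each clone was removed, placed treatment on the second axis. That axis held 20.6% of the variance, and the BHB libraries lay at 8.1 to 21.2 on it while the CR libraries lay at -23.3 to -3.6. The sides did not overlap there. The first axis, with 25.6%, did not separate the treatments. It set IL BHB replicate 3 (33.0) and IL CR replicate 1 (38.0) apart from the other 10 libraries, which lay between -26.1 and 8.2. The other IL libraries lay at -26.1 to -7.4 and the GB libraries at -6.9 to 8.2. The IL females thus spread along an axis that cut across treatment, with 1 female of each side at its far end, and counts are also given below without those 2 libraries.

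**Figure D1:**
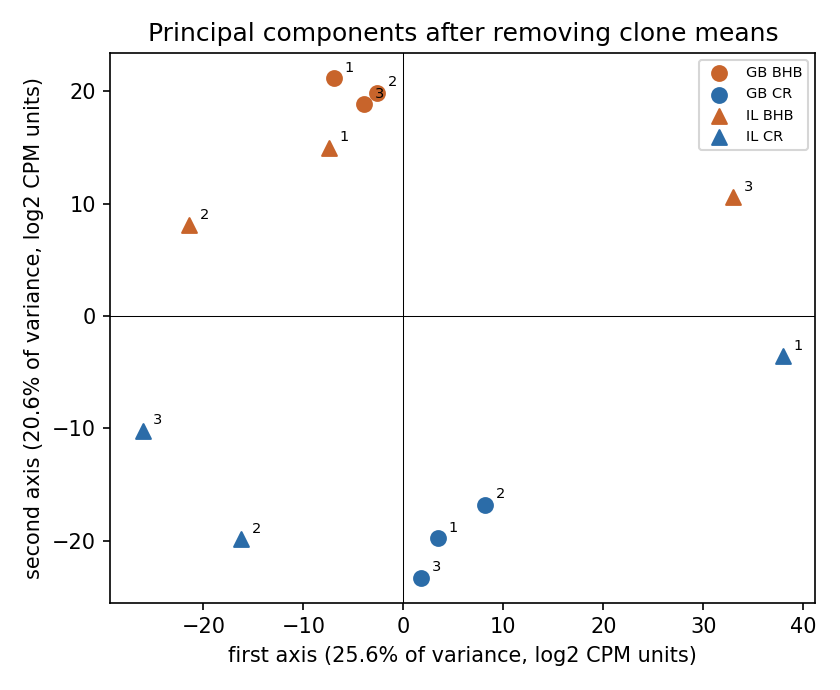
Scores of the 12 libraries on the first (x) and second (y) principal axes of log2 CPM after clone means were removed; circles are GB, triangles IL, and labels give the replicate number. The second axis separates all BHB from all CR libraries, and IL BHB replicate 3 and IL CR replicate 1 lie at 33.0 and 38.0 on the first axis.

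Among 4965 gene models tested in a fit of both clones, 150 (3.02%) differed between BHB and CR at an adjusted p of 0.05 (edgeR quasi-likelihood test, clone as covariate). Of these 66 (1.33%) were higher and 84 (1.69%) lower in BHB. The median log2 difference was 0.96 in the higher set and -0.66 in the lower set, and over all 4965 it was -0.004. Differences over 2-fold were found in 32 of the 66 and 18 of the 84, and over 4-fold in 10 and 7. In contrast, 20 of the 66 and 30 of the 84 differed by under 1.5-fold.

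Without both IL libraries apart on the first axis, 137 gene models passed, 106 of them among the 150. The count was 85 or 87 when replicate 3 or 1 of GB BHB was left out. It was 90 without replicate 3 of GB CR and 91 without replicate 2 of IL CR. The balance of directions did not hold throughout, with 43 higher and 42 lower without replicate 3 of GB BHB. With a linear term for library number no gene model passed in edgeR, and 375 had an unadjusted p under 0.05. The CR libraries hold the highest numbers of the series, so this term overlaps with treatment and that fit cannot separate them. DESeq2 called 323, which included all 150.

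The smallest p of all belonged to KZS08796, which was higher in BHB. It measured 234, 193 and 282 CPM in the GB BHB females against 118, 132 and 98.9 CPM in the GB CR females. In IL it measured 124, 101 and 158 CPM in BHB against 62.0, 53.8 and 71.1 CPM in CR. Within each clone every BHB female lay above every CR female. The log2 difference was 1.03 ± 0.128 (SE, adjusted p = 0.000466) over both clones, 1.02 ± 0.194 in GB and 1.04 ± 0.195 in IL, so that the clones showed nearly equal sizes at levels of 116 ± 16.4 and 62.3 ± 8.63 CPM (SD, n = 3) in CR. Full-diet controls lay at 156 ± 52.3 CPM (SD, n = 6).

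The largest difference at a mean level of 1 log2 CPM or more was that of KZS08918, at 59.8, 27.8 and 96.2 CPM in GB BHB females against 0.279, 0.427 and 0 in GB CR females. In IL it was at 15.3, 10.7 and 0 CPM in BHB against 0.682, 0.173 and 0.0878 in CR. The GB sides did not overlap, while IL BHB replicate 3, at 0 reads, lay below every IL CR female. The log2 difference of 6.49 ± 1.34 (SE, adjusted p = 0.0133) rests on 20 reads in all 6 CR libraries against 2163 in BHB. With 1 library left out it ranged from 6.04 (without GB CR replicate 3) to 7.42 (without IL CR replicate 1). By clone it was 7.94 ± 1.90 in GB (adjusted p = 0.0513) and 4.72 ± 1.76 in IL (adjusted p = 0.416), past the threshold in neither. Controls spanned 1.75 to 214 CPM, so this gene model also varied widely among fully fed females without BHB.

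The largest difference in the other direction at that level was that of KZS18147_1, whose ID stands on 2 rows, so that its reads may be shared with the other row. It measured 725, 31.6 and 212 CPM in GB BHB females against 2246, 1371 and 1505 CPM in GB CR females. In IL it measured 160, 89.2 and 220 CPM in BHB against 828, 1046 and 1177 in CR. No BHB female reached any CR female, although the GB BHB females alone spread from 31.6 to 725 CPM. The log2 difference was -2.55 ± 0.504 over both clones (SE, adjusted p = 0.0125). It was -2.40 ± 0.773 in GB (adjusted p = 0.151) and -2.70 ± 0.783 in IL (adjusted p = 0.287), past the threshold in neither. Controls, at 487 ± 218 CPM (SD, n = 6), also lay below the CR mean of 1362 ± 494 (n = 6).

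The smallest p among gene models lower in BHB belonged to KZS06818, at 156, 199 and 151 CPM in GB BHB females against 427, 259 and 372 CPM in GB CR females. In IL it measured 284, 279 and 211 CPM in BHB against 417, 417 and 379 CPM in CR. The sides did not overlap in either clone. The log2 difference was -0.86 ± 0.137 (SE, adjusted p = 0.00245), with -1.06 ± 0.191 in GB and -0.65 ± 0.189 in IL, and controls at 217 ± 50.6 CPM (SD, n = 6) lay close to the BHB mean of 213 ± 57.7.

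**Figure D2:**
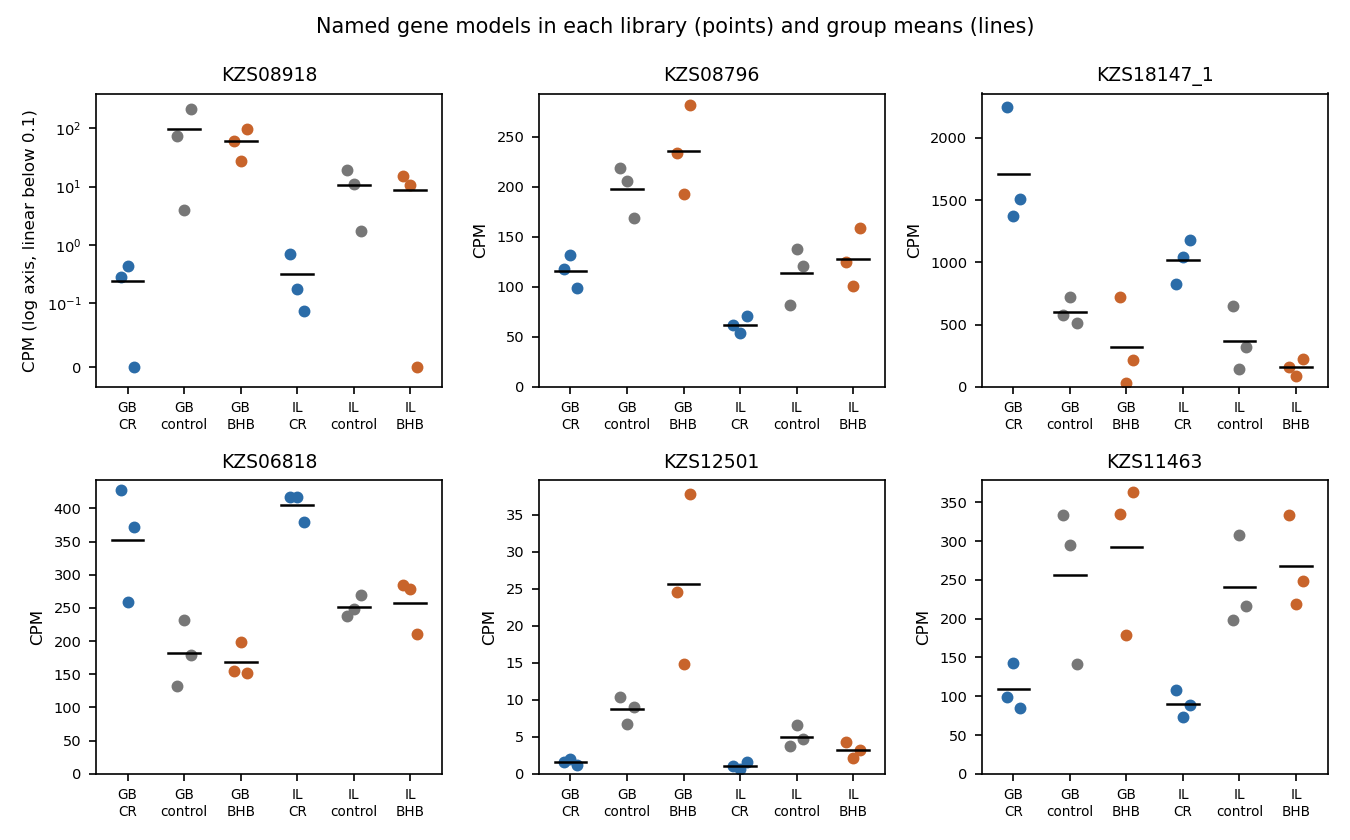
CPM (y) of 6 gene models in each GB and IL library of CR (blue), control (grey) and BHB (orange); points are females and lines group means, and KZS08918 is on a log axis that is linear below 0.1. KZS08796, KZS06818 and KZS18147_1 show no overlap of BHB and CR in either clone, KZS12501 shows its highest levels in GB BHB, and KZS08918 is at 0 in IL BHB replicate 3.

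The clones were then followed one by one, in a fit with a mean for each group of clone and treatment. Of the 150 gene models, 149 had the same sign in both clones, against 3057 of all 4965 (61.6%); since a call in the joint fit needs a difference that holds on average, the 150 were likely to show it. The exception was KZS15438, named here after its values were seen, which had 0 reads in all GB libraries of the comparison and 156 against 38 reads in IL BHB and IL CR females (log2 difference in IL 1.99, adjusted p over both clones 0.0303). Its call therefore rests on IL alone. Of the 66 higher gene models, 54 had the larger difference in GB, with medians of 1.00 in GB and 0.83 in IL. Of the 84 lower ones, 64 had the larger difference in GB, with medians of -0.76 and -0.56. The matching share over all 4965 gene models was not computed, so these counts are not read as particular to the 150. Over all gene models, 724 had an unadjusted p under 0.05 in GB and 436 in IL (edgeR). The direct test of dependence on clone, given below, called 0.

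Sizes were also counted in each clone, which by construction cannot give more gene models than agreement by sign. Differences over 1.5-fold in each clone were found in 37 of the 66 higher and 32 of the 84 lower gene models, and over 2-fold in each clone in 23 and 11. The matching shares over all 4965 gene models were not computed, so nothing is read from these counts. In GB, 60 of the 66 and 78 of the 84 had no overlap between the 3 BHB and the 3 CR females in the direction of their call. Over all 4965 gene models, 545 (11%) lay higher and 578 (11.6%) lower in BHB without overlap in GB. In IL the counts were 51 of the 66 and 66 of the 84, against 346 (6.97%) and 374 (7.53%) of all gene models. In both clones at once they were 46 and 60. The 150 were chosen with these libraries, so that nothing is read from their larger shares. Over all 4965 gene models, 102 (2.05%) lay higher and 119 (2.4%) lower in BHB without overlap in both clones; these 221 became 384 without IL CR replicate 1, where fewer libraries also make separation easier.

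Within GB alone, 78 gene models (1.57% of those tested) differed, 44 higher and 34 lower in BHB, and 59 of them (75.6%) were among the 150, of which they made up 39.3%. The IL libraries, which had no part in choosing these 78 beyond the shared estimate of spread, had the same sign in 76 (97.4%). The 44 had a median log2 difference of 1.46 in GB and 0.45 in IL, and the 34 had -0.87 and -0.44. Among the 78, 46 had the same sign and an unadjusted p under 0.05 in IL, against 436 of all 4965 (8.78%) with such a p of either sign. The 78 were chosen by their p in GB, which favours larger values there, and the reverse choice gave the reverse order. Of the 78 gene models with the smallest p in IL, 68 (87.2%) had the same sign in GB, and the 41 higher ones had medians of 1.37 in IL and 0.72 in GB, the 37 lower ones -0.82 and -0.55.

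The count within GB depended on single libraries, with 5 calls without GB BHB replicate 1, 13 without GB BHB replicate 3, and 7, 31 and 4 without GB CR replicates 1, 2 and 3. DESeq2 called 209, a fit of the 6 GB libraries alone 142, a fit of all expressed rows 49 and a fit with a term for library number 1.

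KZS12501 had the smallest adjusted p within GB. It measured 24.6, 14.8 and 37.8 CPM in GB BHB females against 1.53, 1.97 and 1.23 CPM in GB CR females, and 4.26, 2.18 and 3.20 CPM in IL BHB females against 1.02, 0.606 and 1.58 in IL CR females. BHB lay above CR in every female of both clones. The log2 difference was 4.02 ± 0.422 in GB (SE, adjusted p = 0.000122) and 1.59 ± 0.417 in IL (adjusted p = 0.22), and the difference between clones, 2.43 ± 0.576, did not pass (adjusted p = 0.642). Controls measured 3.70 to 10.3 CPM, below all GB BHB females.

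The largest called difference within GB, at a mean level of 1 log2 CPM or more, belonged to genemark-falcon_000004F-processed-gene-32.11, at 52.5, 44.1 and 51.8 CPM in GB BHB females and 3.69, 2.48 and 0.878 CPM in GB CR females (log2 difference 4.38 ± 0.809 SE, adjusted p = 0.0195). In IL it measured 9.17, 6.33 and 8.84 CPM against 2.56, 0.520 and 1.14 CPM, again without overlap, with a log2 difference of 2.52 ± 0.795 (adjusted p = 0.322). The GB difference missed the threshold without replicate 1 or 3 of GB BHB (adjusted p 0.0656 and 0.0529) or any GB CR female (0.0567, 0.0599 and 0.0911).

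Among those lower in GB BHB, KZS18390 measured 13.6, 35.6 and 17.5 CPM in GB BHB females against 87.2, 106 and 78.8 CPM in GB CR females (log2 difference -2.04 ± 0.467 SE, adjusted p = 0.0408). Its level was higher in IL, at 299.5 ± 63.2 CPM in BHB and 367 ± 52.1 in CR (SD, n = 3), where the sides overlapped and the log2 difference was -0.29 ± 0.442 (adjusted p = 0.925). KZS05952 measured 2.14, 3.16 and 1.92 CPM in GB BHB females against 7.10, 9.14 and 9.21 CPM in GB CR females (-1.82 ± 0.418, adjusted p = 0.0343). In IL it measured 5.79, 4.69 and 1.45 CPM against 6.57, 12.1 and 7.03 CPM, also without overlap (-1.11 ± 0.404, adjusted p = 0.385).

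Both GB calls depended on single libraries and on the fit. That of KZS05952 did not hold without replicate 1 or 3 of GB BHB (adjusted p 0.146 and 0.113) or any GB CR female (0.0877, 0.0996 and 0.102), nor in a fit of the 12 libraries alone (0.0689). That of KZS18390 did not hold without the same 5 libraries (0.0911 to 0.163), without replicate 1 of IL BHB or IL control or replicate 3 of IL CR (0.0539 to 0.0574), and without any NMN library (0.0527 to 0.0586), nor with no low-count filter (0.0827).

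Within IL edgeR called 0 of 4965 gene models, with 436 at an unadjusted p under 0.05 and a smallest adjusted p of 0.0705, while DESeq2 called 38. The count was 4 without IL CR replicate 1, 3 without IL control replicate 1, and 1 without GB NMN replicate 1 or GB NMN replicate 3. The median SD of log2 CPM between the 3 females of a group was 0.225 in IL BHB and 0.271 in IL CR, against 0.288 in GB BHB and 0.216 in GB CR. By this median the spread was larger in IL than in GB on the CR side and smaller on the BHB side. Why fewer gene models were called within IL was not tested, and the smaller count does not show that the clones differ.

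In IL, KZS20010 measured 46.1, 49.9 and 33.3 CPM in BHB females against 68.2, 94.3 and 97.0 CPM in CR females. In GB it measured 70.8, 77.2 and 69.0 CPM against 101, 108 and 125 CPM. BHB lay below CR in every female of both clones, with log2 differences of -1.01 ± 0.186 in IL (SE, adjusted p = 0.0705), -0.62 ± 0.184 in GB (adjusted p = 0.104) and -0.81 ± 0.129 over both (adjusted p = 0.00245). The IL value passed without IL CR replicate 1 (adjusted p 0.0163), with no low-count filter (0.0433) and in DESeq2 (0.000955).

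KZS11463 measured 334, 220 and 249 CPM in IL BHB females against 108, 73.7 and 88.8 CPM in IL CR females. In GB it measured 335, 179 and 364 CPM against 98.6, 143 and 84.9 CPM. This too separated the sides in both clones, at similar levels, with log2 differences of 1.57 ± 0.319 in IL (SE, adjusted p = 0.153), 1.43 ± 0.318 in GB (adjusted p = 0.0331) and 1.5 ± 0.214 over both (adjusted p = 0.00181). DESeq2 gave the IL value an adjusted p of 0.000955.

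**Figure D3:**
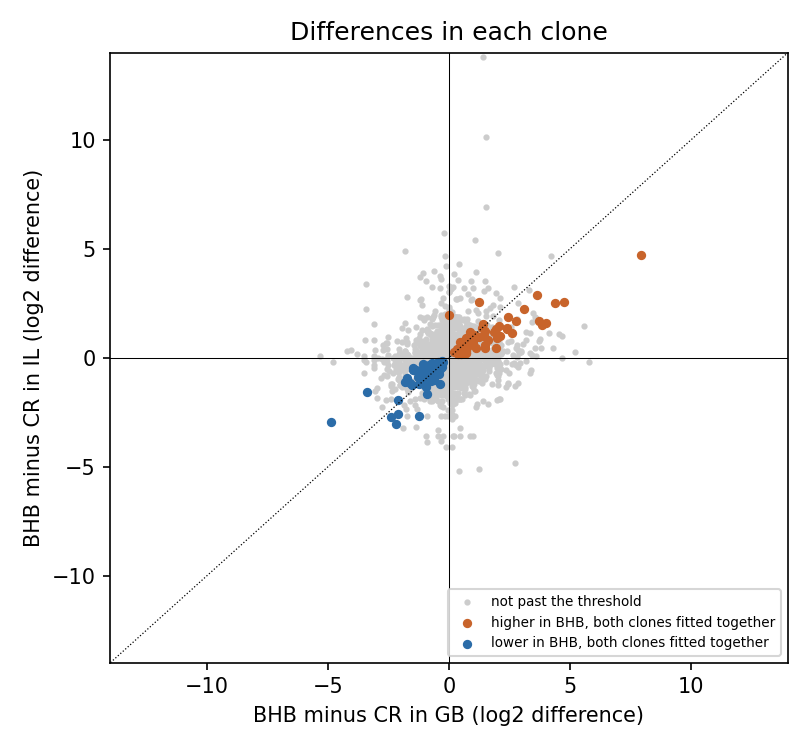
BHB minus CR log2 difference of each of the 4965 gene models in GB (x) and in IL (y), from the fit with group means; orange (66) and blue (84) points passed in the fit of both clones and the dotted line marks equal differences. Of the coloured points 149 lie in the quadrants of equal sign and KZS15438 lies on the vertical line at 0 in GB.

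Whether the difference between BHB and CR depends on clone was tested directly. Here edgeR called 0 of 4965 gene models, with 230 at an unadjusted p under 0.05 and a smallest adjusted p of 0.27, and DESeq2 called 4. First by p was KZS21309, at 22.2, 17.4 and 17.2 CPM in GB BHB females against 4.81, 5.55 and 4.91 CPM in GB CR females, and at 8.36, 11.6 and 10.7 CPM in IL BHB females against 8.36, 10.6 and 11.8 CPM in IL CR females. The GB sides stood far apart and the IL sides coincided, with log2 differences of 1.89 ± 0.26 in GB (SE, adjusted p = 0.00149) and -0.01 ± 0.251 in IL (adjusted p = 1). The difference between clones was 1.90 ± 0.359 (adjusted p = 0.27), and DESeq2 gave it an adjusted p of 0.00142.

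In the opposite direction the smallest p was that of KZS13633_2, whose ID is also on 2 rows. It measured 14.3, 11.7 and 12.8 CPM in GB BHB females against 23.3, 27.7 and 21.8 CPM in GB CR females. In IL it measured 31.3, 29.5 and 33.5 CPM in BHB and 36.1, 24.9 and 22.4 CPM in CR, where the sides overlapped. The difference between clones was -1.08 ± 0.281 (SE, adjusted p = 0.867).

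The share of counts in the most abundant transcripts also differed. The 10 gene models with the highest mean CPM over the 12 libraries took 18.8 ± 2.62% of all counts in BHB (SD, n = 6) and 13.2 ± 1.94% in CR (n = 6). The difference of 5.65 percentage points had a two-sided exact permutation p of 0.01 with labels exchanged within clone (adjusted 0.015 over 3 tests; 400 assignments, smallest possible p 0.005). Most of it lay in the single most abundant gene model, KZS03189, named here after its values were seen. It took 9.45%, 5.91% and 8.12% of counts in the GB BHB females and 0.685%, 1.31% and 0.161% in the GB CR females. In IL it took 6.73%, 4.15% and 3.88% in BHB and 0.631%, 0.94% and 3.23% in CR. Every BHB female was above every CR female, and the difference of 5.21 points gave the smallest exact permutation p the design allows, 0.005 (adjusted 0.015). In controls the 10 took 17.9 ± 2.11% of counts (SD, n = 6). KZS03189 alone took 1.91% to 8.32% there, a range that overlaps that of BHB.

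The other 9 abundant gene models together took 12.5 ± 1.05% in BHB and 12.03 ± 1.46% in CR (difference 0.44 points, two-sided exact permutation p = 0.595, adjusted 0.595). In edgeR 3 of the 10 were called, all higher in BHB, against 3.02% of all 4965 gene models and 4.27% of the 1241 with the highest mean levels. The 10 were chosen by mean CPM over these same libraries, which favours gene models very high on 1 side. Nothing is therefore read from this share or its direction. KZS03189 had a log2 difference of 2.66 ± 0.549 (SE, adjusted p = 0.0133). With 1 library left out this ranged from 2.37 (without GB CR replicate 3) to 3.30 (without IL CR replicate 3). Its call was lost in a fit of the 12 libraries alone (adjusted p 0.0586). The gene models at ranks 2 and 4 of abundance had log2 differences of 1.06 ± 0.223 (adjusted p = 0.0133) and 1.86 ± 0.351 (adjusted p = 0.00745), and neither overlapped between the sides in either clone. Those at ranks 3 and 7, at -0.52 and -0.41, also did not overlap in either clone but did not pass (adjusted p 0.0695 and 0.0539). The IDs at ranks 2 and 7 stand on several rows, so their reads may be shared with other rows.

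**Figure D4:**
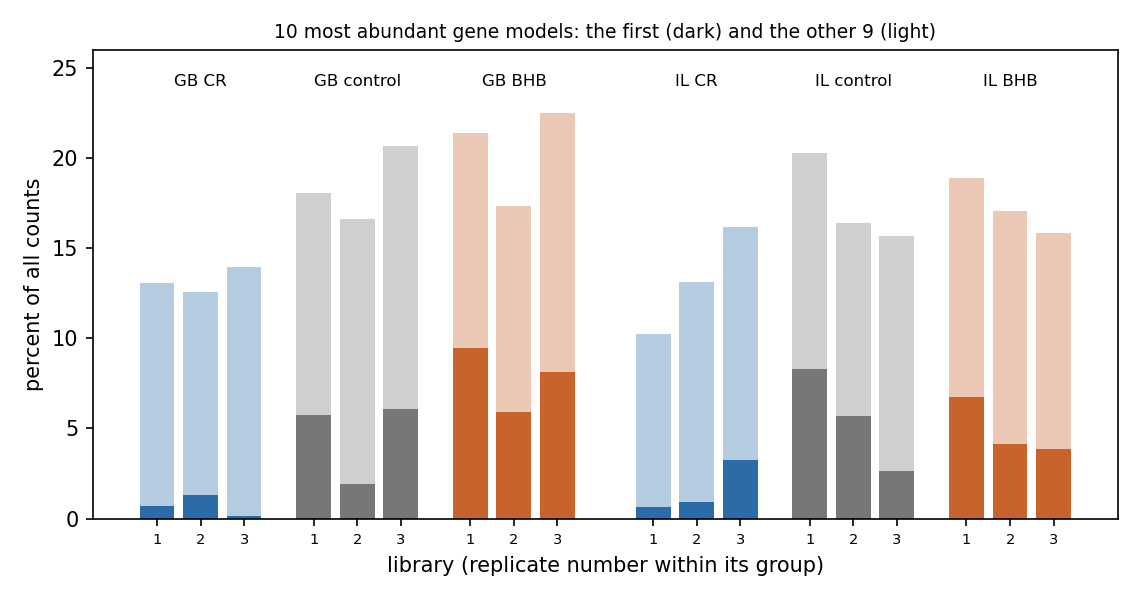
Percent of all counts (y) in the 10 most abundant gene models for each GB and IL library (x, replicate number within its group) of CR (blue), control (grey) and BHB (orange); the dark part is KZS03189 and the light part the other 9. KZS03189 takes 0.161% to 3.23% in CR and 3.88% to 9.45% in BHB.

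What the 150 gene models shared apart from their difference was also examined. The share called was larger at higher levels, at 0.805%, 2.9%, 4.11% and 4.27% of gene models in 4 equal bins from the lowest to the highest mean log2 CPM. In the lowest bin, at mean log2 CPM up to 0.69, the 10 called had a median absolute log2 difference of 2.50, and in the highest bin the 53 called had 0.67. In the highest bin 31 were higher and 22 lower in BHB, and in the bin below it 17 and 34. The higher set had a median level of 6.48 log2 CPM and the lower set of 5.10, against 3.98 over all tested.

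IDs that stand on several rows made up 17 of the 150 (11.3%) and 1038 of the 4965 (20.9%). Gene-model IDs without a protein accession made up 11 (7.33%) and 421 (8.48%). Between GB and IL, 2199 gene models (44.3%) differed, and of the 150 this held for 67 (44.7%), a share near that of all gene models.

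Control and NMN values were set beside those of BHB, against the same CR libraries, which all 3 comparisons share. Over the 66 gene models higher in BHB than in CR, the median log2 difference from CR was 0.96 in BHB, 0.75 in control and 0.44 in NMN. Over the 84 lower ones it was -0.66 in BHB, -0.62 in control and -0.53 in NMN. The sets were chosen with the same CR libraries, a choice that by itself can move the control and NMN medians toward the BHB side, so nothing is read from these medians and no test is attached to them.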

How the data were processed

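The deposited values are unnormalized counts of reads on the sense strand, 1 value per gene model and library, per the labels. Reads came from a directional kit (NEBNext Ultra II), per the labels' protocols. Trim Galore 0.4.5, STAR, FastQC and DESeq2 appear in the submitters' processing notes. The counter, annotation and genome build are not given in the sources used. Groups follow the letters of the titles, where L was read as CR by elimination. The design text describes 3 cohorts per clone, but the labels do not tie females to them, and p-values measure the spread between these females.

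Of 14657 rows, 4965 passed edgeR's filterByExpr on the 8 groups (minimum count 10, minimum total 15), each row kept as its own gene model with a suffix where an ID repeats. Counts were scaled by TMM and tested by the quasi-likelihood F test (robust) of edgeR 4.0.16 in R 4.3.3. All 22 libraries entered, with clone and treatment as terms, or with 8 group means for contrasts within a clone and between clones; control and NMN libraries served the estimate of spread (biological coefficient of variation 36.1%). P-values were adjusted by Benjamini-Hochberg over all gene models. Standard errors came from the log2 difference and its F statistic. Log2 CPM used a prior count of 2.

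Named gene models were, in each direction, those with the largest difference and the smallest p at a mean log2 CPM of at least 1 with the same sign in both clones. To these were added the 2 largest within GB, and the smallest p where none passed, each time among gene models not named before. KZS08796, named before, thus had a smaller p within IL than KZS11463. The members, lists and rules were chosen with earlier results of these data known, and the named-gene lists for pathways had no member that could be matched. Females of the same group always differed by more than sampling noise (chi-square over its degrees of freedom 52.8 or higher). The fits were also run on simulated counts built from the levels and spread of these data, and nothing is read from that run here. Alternatives included DESeq2 1.42.0, sva 3.50.0, other scalings and filters, a replicate block, and each library left out.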

Additional observations from a re-analysis of the deposited data

Results flagged for a closer look

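Of 36 sets of 6 libraries examined (BHB or CR, both clones together), 3 held a library far from the others, where chance alone flags about 1 in 20. KZS08918 in BHB had IL BHB replicate 3 at -2.57 log2 CPM (0 reads) against 3.44 for the next lowest, a gap of 0.656 of the range. KZS06818 in CR had GB CR replicate 2 at 8.02 log2 CPM against 8.54 for the next lowest (0.725 of the range). The share of counts in the most abundant gene model in CR was 3.23% in IL CR replicate 3 against 1.31% for the next highest (0.627 of the range). The sets pool the clones, whose levels differ for many gene models.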

How the results depend on the processing

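The count of 150 gene models over both clones was 323 with DESeq2, 320 with 1 surrogate variable, 313 at an adjusted p of 0.1 and 0 with a linear term for library number. It ranged from 85 to 183 when 1 library was left out. Within GB (78) the count was 209 with DESeq2, 157 at an adjusted p of 0.1, 142 in the 6 GB libraries alone, 49 with no low-count filter, 1 with library number, and 4 to 98 with 1 library left out. Within IL (0) it was 38 with DESeq2, 4 at an adjusted p of 0.1, 4 with no low-count filter and 0 to 4 with 1 library left out; dependence on clone (0) gave 4 with DESeq2. The 221 gene models without overlap became 247 to 384 with 1 library left out. The share of the 10 most abundant without the first of them differed by 0.44 points (exact permutation p = 0.595). The causes of these shifts were not tested. For the counts without overlap, a smaller number of libraries by itself makes separation easier.

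Median-ratio scaling gave 150 calls, 145 of them shared, and shifted the median of all log2 differences from -0.004 to 0.001. None of the named differences changed sign under any alternative run. With the term for library number, the log2 difference over both clones was 1.14 for KZS08796 and 6.34 for KZS08918. It was -3.84 for KZS18147_1 and -0.44 for KZS06818, and none of these passed there (edgeR adjusted p 0.445 to 0.688). The labels do not say what a shared title number marks. The deviations of same-numbered BHB and CR females had r of 0.08, 0.05 and 0.13 in GB, where each BHB female correlated best with the CR female of her number, and -0.17, 0.26 and -0.49 in IL, where none did. The replicate block was fitted in the 12 libraries alone, where it gave 47 calls (26 higher, 21 lower) against 147 (56 and 91) without the block. KZS18147_1 (adjusted p 0.0679, 0.0453 without the block) and KZS06818 (0.0545 and 0.00894) missed the threshold with it, and KZS03189 missed it both with (0.129) and without it (0.0586). In the lowest bin of levels, with the fewest reads, 10 of 1242 gene models were called, and which sizes could be detected there was not tested.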
